A study of Mus musculus with 9 samples.

Results

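The comparison set 3 mouse retina arrays titled hypoxic, from mice at stage P12.5 (postnatal age in days), against 3 arrays of P12 retinas that served as the reference of the deposited ratios, so that 6 of the 9 arrays of the series were compared. The reference arrays were chosen from the deposited ratios of all arrays, not from any level at P12.5. For control 1, hyperoxic 2 and hyperoxic 3 the median of the 3 deposited ratios was 1 within 0.0015 at every probe. Among all 84 sets of 3 arrays the next best set met this at 42.7% of probes, and the 3 arrays titled control met it at 12.6%. A reference made of 1 array titled control and 2 titled hyperoxic puts the P12 titles in doubt, so these arrays are called the reference arrays here, and control 2, control 3 and hyperoxic 1 are called the other P12 arrays.

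All mice were C57BL/6N, with no transgene or deletion named. Pups titled hyperoxic or hypoxic had been kept with their mothers in 75 ± 2% oxygen for 5 days from P7. Retinas titled hyperoxic were taken at P12, at 0 hours after the oxygen, and those titled hypoxic at P12.5, after 12 hours in room air, while the control title stands for P12 mice of normal rearing. Each array held RNA of the 2 pooled retinas of 1 mouse. No room-air mouse of P12.5 was among the 9 samples, so return to room air, 12 hours of age and the time of day cannot be told apart. The reference arrays also include 1 titled control, and the P12 titles are in doubt. The 5 days in 75% oxygen therefore cannot be told apart from these either.

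In oxygen-induced retinopathy, high oxygen stops vessel growth and removes capillaries from the centre of the young retina. On return to room air the poorly supplied retina becomes hypoxic, the hypoxia-inducible factors (HIF) are stabilized, and they raise genes for glucose uptake, glycolysis and vessel growth. HIF binds DNA at sites with the core letters ACGTG. Muller glia and astrocytes answer such stress with STAT3 signalling and intermediate filaments.

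The arrays measured probe intensity on Illumina bead chips, given below as background-corrected, quantile-scaled log2 signal, where a difference of 1 is a 2-fold change. Median raw intensities were 67.4 to 82.3 on 8 arrays and 163.6 on hyperoxic 1, which detected 30.6% of probes against 42.1% to 44.5% on the others and is not among the 6 arrays compared. Of 10 tested retina identity genes, including the photoreceptor gene Rcvrn and the ganglion cell gene Thy1, all 10 were detected on all 6 arrays. The signals of Xist and Eif2s3y gave 1 female and 2 male mice in the P12.5 set and likewise in the reference set. Detection p-values deposited beside control 2, control 3 and the 3 hyperoxic arrays followed the intensity of another array and were used with the array they follow.

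Promoters of genes that rose and that belong to the HIF and glycolysis lists are shown first, because they hold the letters HIF is known to bind. They are the 3 with most matches of ACGTG, ties in order of the symbol, from RefSeq on GRCm38.p6, each 300 bases from 250 before to 50 after a transcript start. Capitals mark the matches on either strand, where CACGT is the reverse complement of ACGTG.
Hk2: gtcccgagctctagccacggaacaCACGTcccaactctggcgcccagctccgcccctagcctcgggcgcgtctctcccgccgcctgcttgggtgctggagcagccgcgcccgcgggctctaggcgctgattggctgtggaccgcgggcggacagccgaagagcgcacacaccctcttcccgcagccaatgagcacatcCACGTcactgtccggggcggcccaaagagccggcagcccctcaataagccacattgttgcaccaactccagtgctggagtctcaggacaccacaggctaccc
P4ha2: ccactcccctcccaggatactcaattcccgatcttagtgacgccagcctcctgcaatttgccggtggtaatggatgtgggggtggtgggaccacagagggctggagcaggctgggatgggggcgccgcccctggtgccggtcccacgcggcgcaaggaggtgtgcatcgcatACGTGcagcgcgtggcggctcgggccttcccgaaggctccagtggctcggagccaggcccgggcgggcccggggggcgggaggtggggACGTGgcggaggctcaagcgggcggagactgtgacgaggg
Ak4: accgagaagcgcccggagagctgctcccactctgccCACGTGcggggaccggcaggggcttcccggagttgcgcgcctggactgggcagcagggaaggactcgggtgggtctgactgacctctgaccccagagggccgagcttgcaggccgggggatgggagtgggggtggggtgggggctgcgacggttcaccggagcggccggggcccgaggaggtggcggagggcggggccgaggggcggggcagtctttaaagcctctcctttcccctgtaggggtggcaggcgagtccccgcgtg

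The Hk2 window lay at chr6:82774405-82774704 on the minus strand, the P4ha2 window at chr11:54100674-54100973 on the plus strand, and the Ak4 window, at a start inside the first part of the gene, at chr4:101419453-101419752 on the plus strand. In Hk2 the matches began 226 and 52 bases before the start. ACGTG stood in 19.6% of 32851 such windows and in at least 1 window of 21.8% of 27025 genes. Of the called HIF genes with a window, 7 of 11 held a match, and of those not called, 9 of 12 did. In the glycolysis list 3 of 5 called and 10 of 14 other genes held a match, so in neither list was the share with a match higher among the called genes. The match of Vegfa was in the window of a downstream start inside the gene, not in that of the 5' end. A match is a run of letters and not a measured binding site.

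The P12.5 arrays differed from the reference arrays at 3162 of 19548 tested probes, or 16.2%, by limma at an adjusted p of 0.05, with 1487 higher (7.61%) and 1675 lower (8.57%). On the scale of genes, each given by its most intense tested probe, 1893 of 10940 differed (17.3%), with 884 higher (8.08%) and 1009 lower (9.22%). These shares over all genes are the ones to set beside each list count below. Most changes were small, with a median size of 0.53 on the log2 scale in either direction. More than 2-fold changes were found in 91 of the genes that rose and 80 of those that fell. The median difference over all genes was 0.0083. Any 2 P12.5 arrays differed by 0.210 to 0.239 (root mean square over tested probes, log2) and any 2 reference arrays by 0.239 to 0.307, while a P12.5 and a reference array differed by 0.348 to 0.418. With the deposited ratios in place of the intensities, 58.6% of the called probes were higher at P12.5, against 47.0% here.

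**Figure D1:**
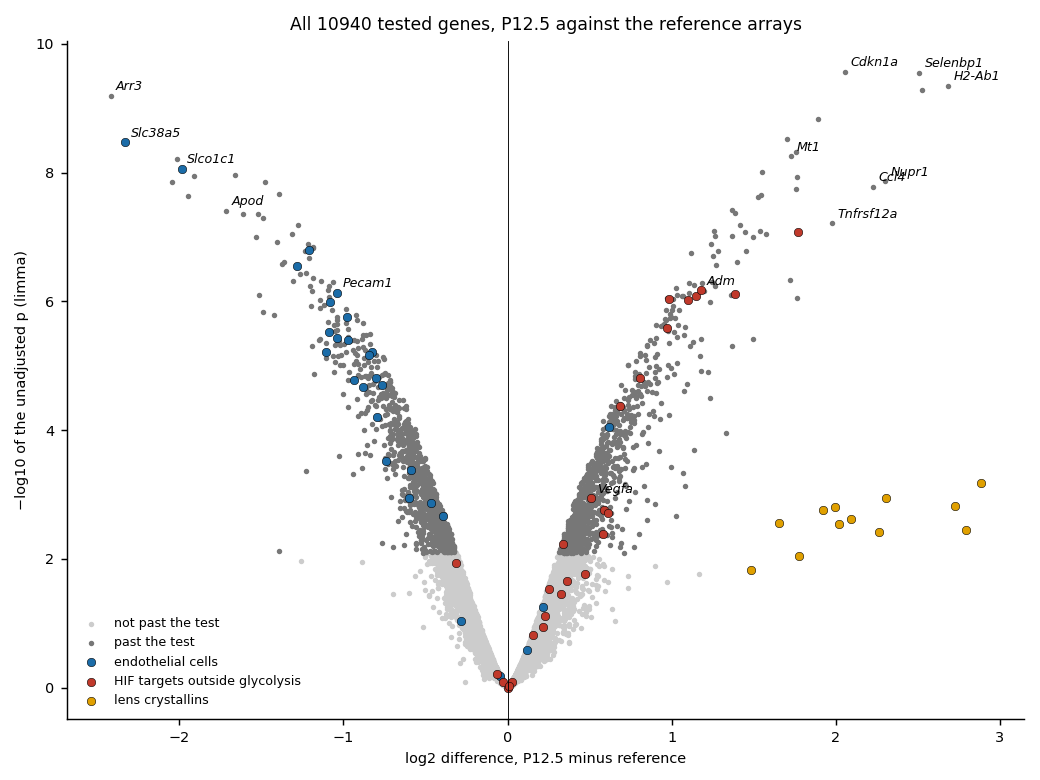
Each point is 1 of 10940 genes, with the log2 difference between P12.5 and the reference arrays across and −log10 of the unadjusted limma p upward. Endothelial genes (blue) lie mostly to the left, HIF targets (red) mostly to the right, and lens crystallins (yellow) lie far to the right at low −log10 p.

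Part of the genes that HIF is known to raise were higher at P12.5. Outside glycolysis, 14 of 27 tested HIF targets rose and 0 fell, against 8.08% and 9.22% of all genes, and their median difference was 0.47 against 0.0083 over all genes. Their mean level was 8.52 to 8.61 on the P12.5 arrays and 7.96 to 8.11 on the reference arrays, and at most 8.07 on the other P12 arrays. Without hypoxic 2, 9 of these genes were called. With all arrays 13 of the 27 did not pass, among them Hilpda (0.001), Car12 (0.03), Ndrg1 (0.15) and Car9 (0.23). Of the 27 differences 24 were above 0 and 3 below. Among the 25 genes with probes detected on all 6 arrays, 12 rose and 0 fell, at a median of 0.37.

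Igfbp3, a binding protein of insulin-like growth factors, had the largest rise of this list. Its signal was 4.94, 5.45 and 5.14 on control 1, hyperoxic 2 and hyperoxic 3, the order kept for all reference values below, and 7.08, 6.76 and 7.01 on hypoxic 1, 2 and 3. The sets did not overlap, which held for 38.0% of all genes, counting either direction. The difference was 1.77 ± 0.14 (SE, n = 3 per set), or 3.41-fold, at an adjusted p of 2.91e-05. Igfbp3 was detected on 2 of the 3 reference arrays.

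The oxygen sensors of the HIF pathway rose as well. Egln3, a prolyl hydroxylase that marks HIF for decay and is itself a HIF target, read 5.40, 5.16 and 5.06 on the reference arrays and 6.85, 6.38 and 6.55 at P12.5, a difference of 1.39 ± 0.14 with an adjusted p of 0.000125, and it was detected on 2 of the 3 reference arrays. Its relative Egln1 went from 8.23, 8.55 and 8.58 to 9.60, 9.63 and 9.58, a 2.22-fold rise (adjusted p 0.000126). In both genes every P12.5 array lay above every reference array, where 38.0% of all genes had sets that did not overlap.

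Adm, the vessel-acting peptide adrenomedullin, read 5.18, 5.48 and 5.34 on the reference arrays and 6.66, 6.43 and 6.45 at P12.5. The rise was 1.18 ± 0.12, or 2.26-fold, with an adjusted p of 0.000113. Plod2 and P4ha2, which hydroxylate collagen, rose by 1.10 ± 0.11 and 0.97 ± 0.11. P4ha1 read 8.71, 8.72 and 8.56 against 8.43, 8.36 and 8.27 and did not pass (-0.31 ± 0.10, adjusted p 0.0636). Ak4, a mitochondrial adenylate kinase, rose by 0.98 ± 0.10, and Stc2, the secreted glycoprotein stanniocalcin 2, by 0.81 ± 0.11. Bhlhe40, a transcriptional repressor, rose by 0.68 ± 0.10. The smallest rise past the test was that of the lipoprotein receptor gene Vldlr, at 0.34 ± 0.10 (adjusted p 0.0405), and it did not pass with any of the 6 arrays left out.

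Vegfa, the main growth signal for endothelial cells, also rose. Reference values were 10.26, 10.24 and 9.94, and P12.5 values were 10.68, 10.73 and 10.56. The difference was 0.51 ± 0.12, or 1.43-fold, with an adjusted p of 0.0136. Without hyperoxic 3 it was 0.41 (adjusted p 0.0532) and without hypoxic 2 it was 0.48 (adjusted p 0.0621).

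In the glycolysis and glucose uptake list 6 of 20 tested genes rose and 0 fell, against 8.08% and 9.22% of all genes. The median was 0.20. Pdk1, a kinase that inhibits pyruvate dehydrogenase, read 7.11, 6.81 and 6.59 on the reference arrays and 8.24, 8.06 and 8.30 at P12.5, a difference of 1.36 ± 0.14 (adjusted p 0.000126). The glucose transporter genes Slc2a3 and Slc2a1 rose by 0.85 ± 0.10 and 0.59 ± 0.11. Hk2, a hexokinase, went from 9.65, 9.43 and 9.57 to 10.20, 10.22 and 10.16, a 1.56-fold rise (adjusted p 0.00202). Pfkfb3, which makes an activator of glycolysis, rose by 0.67 ± 0.13, and the phosphofructokinase gene Pfkp by 0.51 ± 0.11. The other 14 genes of the list did not pass the test.

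**Figure D2:**
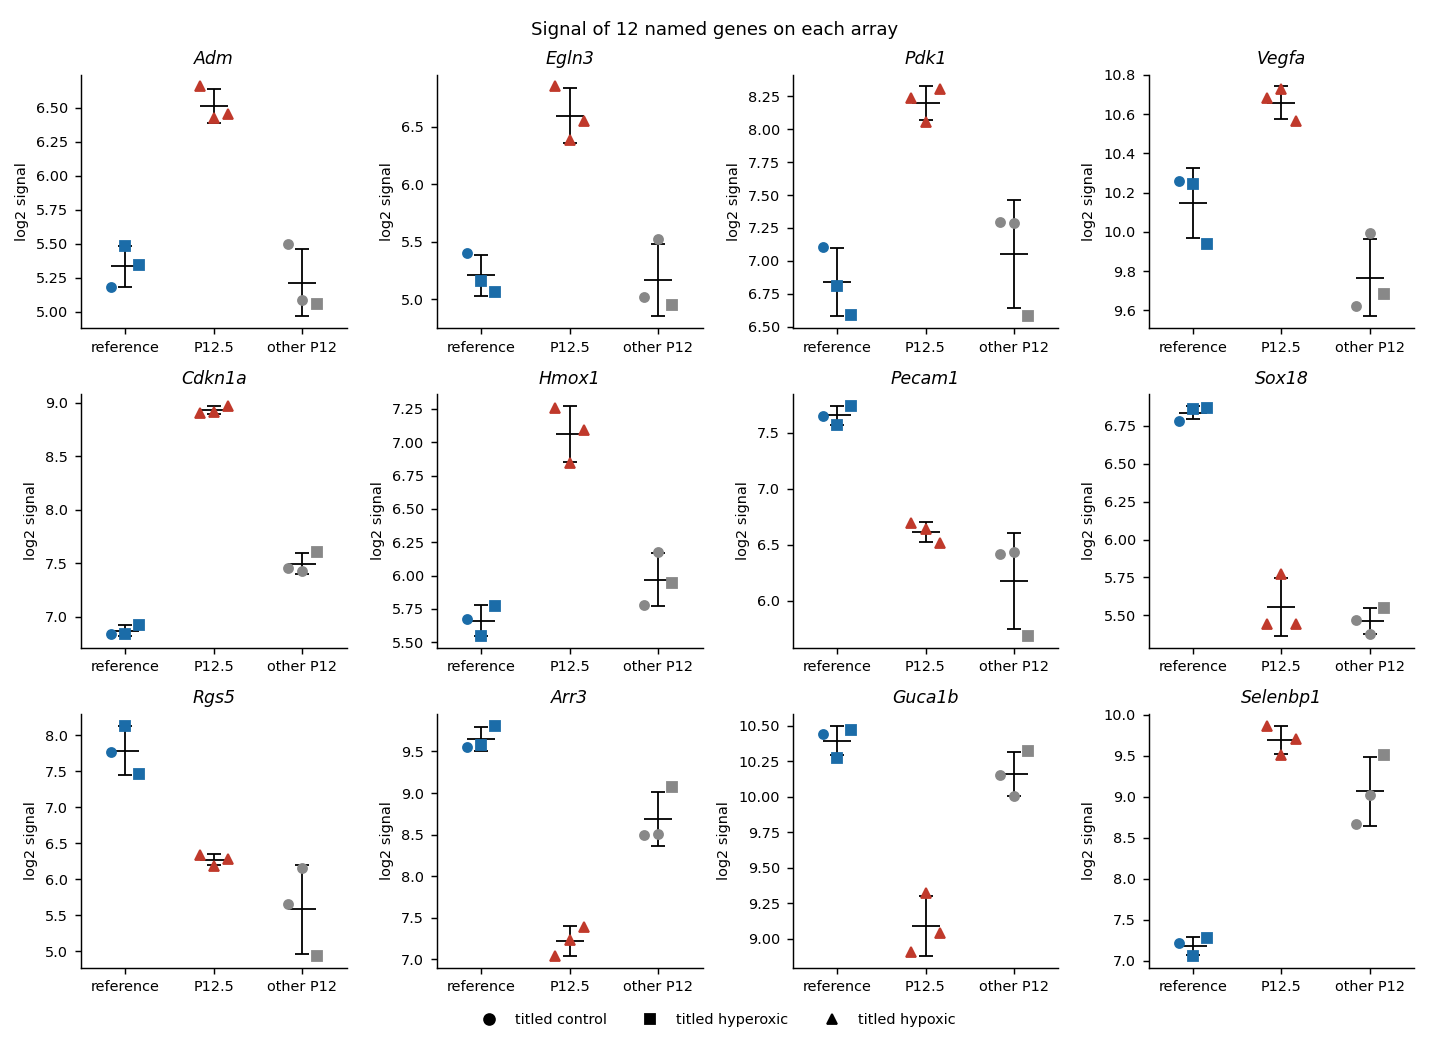
Background-corrected, quantile-scaled log2 signal of 12 genes on each array, with reference arrays in blue, P12.5 arrays in red and the other P12 arrays in grey, and the marker shape giving the title. Bars are the mean ± SD of 3 arrays. The 12 genes were picked from those past the test, so the gap between the P12.5 and reference arrays in each panel is no added support. Sets did not overlap in 38.0% of all genes.

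Vessel genes were lower at P12.5 than on the reference arrays. Of 28 tested endothelial genes 23 fell and 1 rose, against 9.22% and 8.08% of all genes, and the median difference was -0.83. Their mean level was at most 6.79 on the P12.5 arrays and reached 7.57 on the reference arrays, and the sets did not overlap. Among the 25 genes with probes detected on all 6 arrays, 20 fell and 1 rose, at a median of -0.80. In whole retina, fewer endothelial cells and less RNA per endothelial cell cannot be told apart.

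The 2 largest falls of the list were those of Slc38a5 and Slco1c1, transporter genes of the blood-retina barrier. Slc38a5, an amino acid transporter, read 8.88, 8.73 and 8.84 on the reference arrays and 6.34, 6.81 and 6.31 at P12.5, a fall of 5.03-fold (log2 difference -2.33 ± 0.14, adjusted p 5.48e-06). Slco1c1, which carries thyroid hormone, went from 7.05, 7.45 and 7.44 to 5.40, 5.19 and 5.39, a difference of -1.98 ± 0.13 (adjusted p 8.52e-06). Mfsd2a, a lipid transporter that keeps the barrier closed, fell less, with a difference of -0.84 ± 0.11.

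Genes of endothelial identity and junctions were lower too. The transcription factor gene Sox18 differed by -1.28 ± 0.12 and its relative Sox17, undetected on all P12.5 arrays, was at least 1.59-fold lower. Tek, the receptor of the angiopoietins, read 5.87, 5.87 and 5.71 on the reference arrays, was not detected on any P12.5 array and was at least 1.74-fold lower (adjusted p 4.26e-05). The adhesion gene Pecam1 read 7.65, 7.57 and 7.74 against 6.70, 6.64 and 6.52, a difference of -1.04 ± 0.10 (adjusted p 0.000119), and the junction gene Cdh5 differed by -1.09 ± 0.13. Robo4, a guidance receptor of vessels, differed by -1.08 ± 0.11 at its more intense probe, while its other tested probe had the opposite sign, and Vwf, the clotting factor of endothelial cells, by -0.88 ± 0.12. No P12.5 array reached a reference array in any of these genes, where 38.0% of all genes had sets that did not overlap.

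Plvap, the gene of the diaphragm protein of leaky vessels, was the endothelial gene that rose, from 5.23, 5.40 and 5.45 to 5.99, 5.97 and 5.97 (0.62 ± 0.10, adjusted p 0.00253). Kdr, the main VEGF receptor gene, read 5.83, 5.94 and 5.99 against 6.15, 6.17 and 6.08. Its difference of 0.21 ± 0.10 did not pass the test (adjusted p 0.174), although the sets did not overlap. Sets that did not overlap, in either direction, were found in 38.0% of all genes.

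Among pericyte and vascular smooth muscle genes 6 of 11 tested fell and 1 rose, against 9.22% and 8.08% of all genes. The median was -0.56, and among the 10 genes with probes detected on all 6 arrays 5 fell and 1 rose, at a median of -0.45. Rgs5, a regulator of G protein signalling that marks pericytes, read 7.77, 8.13 and 7.46 against 6.33, 6.19 and 6.29, a difference of -1.52 ± 0.15 (adjusted p 0.000126). Vtn, the matrix protein vitronectin, differed by -1.40 ± 0.12 and Higd1b by -1.20 ± 0.13. Mcam, an adhesion molecule of vessel walls, rose by 0.78 ± 0.11. Of 13 basement membrane genes 5 fell and 0 rose, among them the nidogen gene Nid1 at -0.78 ± 0.13, the collagen IV genes Col4a2 at -0.61 ± 0.11 and Col4a1 at -0.55 ± 0.10, and Hspg2, the perlecan gene, at -0.60 ± 0.12. All 4 were also lower in the other P12 arrays than on the reference arrays, by -0.86 to -1.13.

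In the list of angiogenic ligands and receptors 3 of 22 tested genes rose and 6 fell, against 8.08% and 9.22% of all genes, and the median was 0.04. Those that rose were the ligand genes Adm, Vegfa and Angpt2. Angpt2, which loosens vessels through Tek, read 6.84, 6.74 and 6.80 against 7.25, 7.25 and 7.14, a difference of 0.42 ± 0.10 (adjusted p 0.015), and it had an adjusted p of 0.0604 without hypoxic 1 and 0.0624 without hypoxic 2. Those that fell were Aplnr, the apelin receptor gene, at -1.49 ± 0.16 with detection on 2 of 3 P12.5 arrays, Tek, the adrenomedullin receptor partner Ramp2 at -0.98 ± 0.11, the chemokine gene Cxcl12 at -0.93 ± 0.11, Ephb4 at -0.47 ± 0.10 and Pdgfb at -0.41 ± 0.11. Pdgfb, which recruits pericytes, lost its call without hypoxic 2, hypoxic 3 or hyperoxic 3. Of the 19 genes of this list with probes detected on all 6 arrays, 3 rose and 4 fell, at a median of 0.05.

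**Figure D3:**
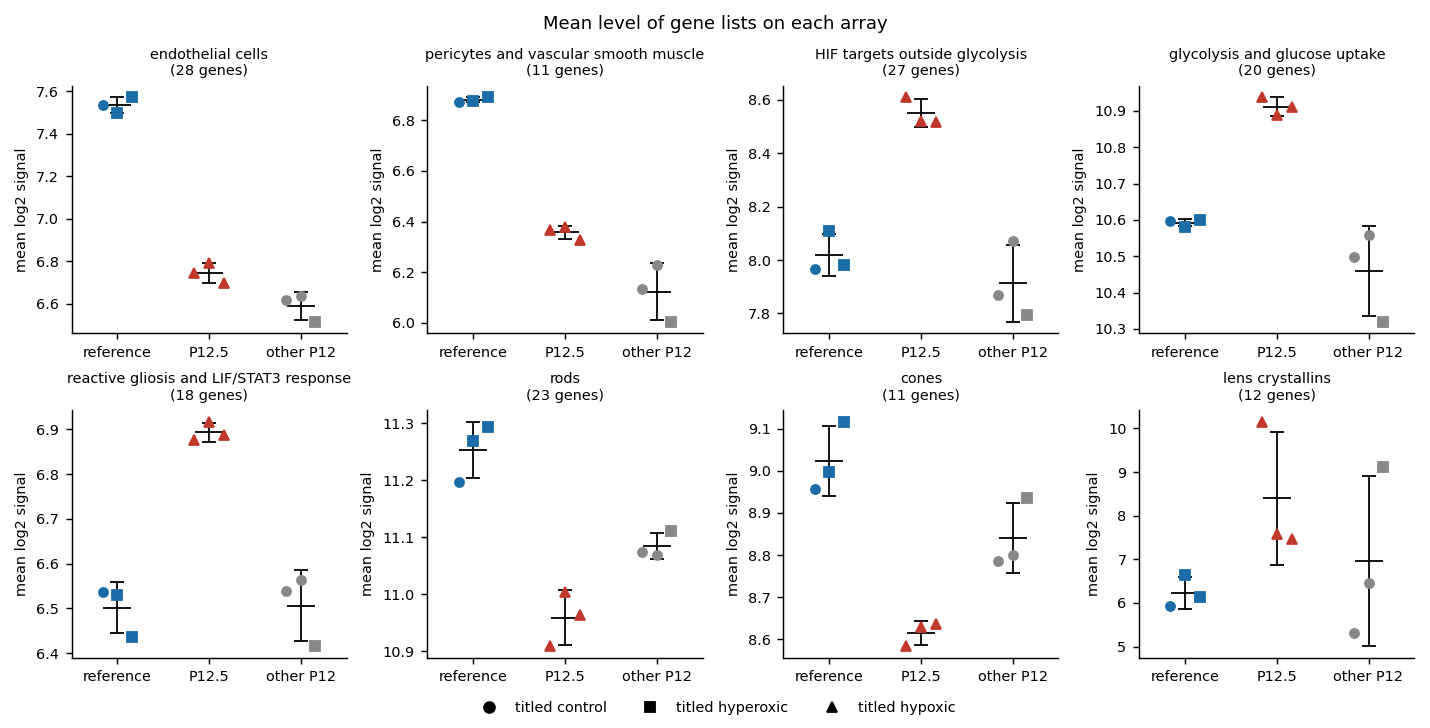
Mean log2 signal of 8 gene lists on each array, by set, with bars at the mean ± SD of 3 arrays and the marker shape giving the title. Endothelial and pericyte levels were highest on the reference arrays, HIF, glycolysis and gliosis levels were highest at P12.5, and the lens crystallins varied widely within sets.

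The other P12 arrays show where these differences depend on the choice of reference. The other P12 and the reference arrays, of the same labelled age, differed at 873 of 19548 probes (4.47%), with 332 higher (1.70%) and 541 lower (2.77%) in the other P12 arrays by limma over 9 arrays. This comparison and that of P12.5 share the reference arrays, so their values are set side by side and no agreement between them is scored.

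Endothelial genes were lower in the other P12 arrays as well, in 23 of 28 against 3.27% of all genes, with a median of -1.02 beside -0.83 for P12.5. Pecam1 read 6.42, 6.43 and 5.68 on control 2, control 3 and hyperoxic 1, where it was not detected on hyperoxic 1, below all reference arrays (adjusted p 0.0027), and its P12.5 level differed from these by 0.44 (adjusted p 0.17). Other endothelial genes did differ between P12.5 and the other P12 arrays. Emcn, Robo4 and Adgrl4 were higher at P12.5, by 0.90, 0.75 and 0.74 (adjusted p 0.0058, 0.0135 and 0.032), and Slco1c1 was lower by 0.94 (adjusted p 0.0098). Emcn and Adgrl4 were not detected on hyperoxic 1, so the size of their differences is not exact. Cd34 was also higher at P12.5 (adjusted p 0.025), but it was detected on none of the other P12 arrays, so no size is given. Pericyte genes were lower in the other P12 arrays than on the reference in 7 of 11, with a median of -0.76. Of the 9 arrays the reference arrays held the 3 highest mean levels in the endothelial and in the pericyte list.

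HIF targets outside glycolysis did not stand apart in the same way. Compared with the reference, 1 of 27 was higher and 2 were lower in the other P12 arrays, against 1.97% and 3.27% of all genes, with a median of -0.10, beside 0.47 for P12.5. Adm read 5.50, 5.08 and 5.05 in the other P12 arrays, where the last value, on hyperoxic 1, was not above background, and P12.5 was higher than these by 1.30 (adjusted p 0.002). For Vegfa, with 9.62, 9.99 and 9.69 there, P12.5 was higher by 0.89 (adjusted p 0.0087). Mcam turned the other way, at -0.75 in the other P12 arrays against the reference (adjusted p 0.016), beside 0.78 at P12.5.

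**Figure D4:**
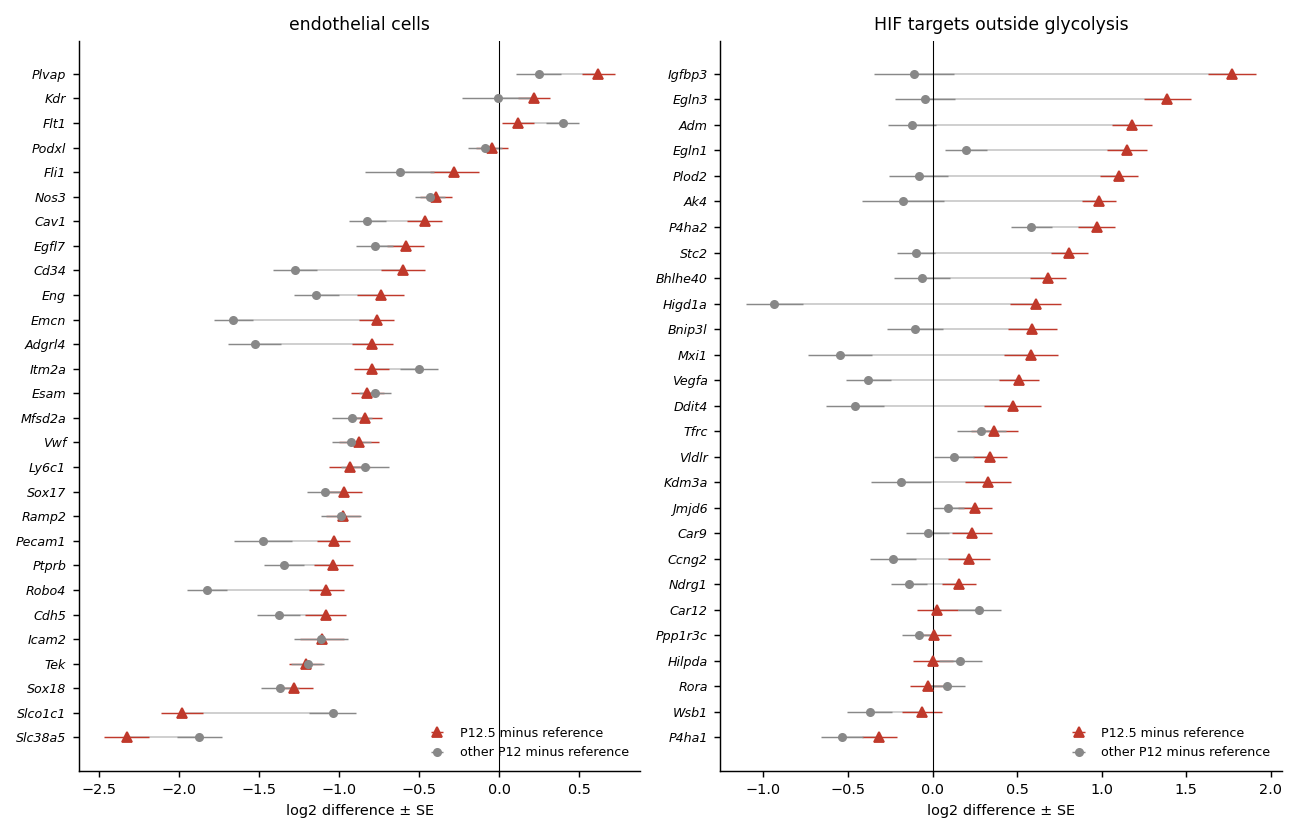
Log2 difference ± SE from the reference arrays for P12.5 (red triangles) and for the other P12 arrays (grey circles), for 28 endothelial genes and 27 HIF targets. Most endothelial genes lie below 0 for both sets, while most HIF targets that rose at P12.5 lie near 0 for the other P12 arrays. Further off among these are P4ha2 at 0.58, Higd1a at -0.94, Mxi1 at -0.55 and Vegfa at -0.38.

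Part of the glial stress genes rose at P12.5. Of 18 tested genes of reactive gliosis and of LIF/STAT3 signalling 8 rose and 1 fell, against 8.08% and 9.22% of all genes. Their median was 0.32, and 9 did not pass. Ednrb, the gene that fell, differed by -0.37 ± 0.10, a call lost without control 1, hyperoxic 3, hypoxic 1 or hypoxic 3. Cntfr, at 0.36 ± 0.10, lost its call without hyperoxic 2, hyperoxic 3 or any 1 of the P12.5 arrays. Among the 17 genes with probes detected on all 6 arrays, 7 rose and 1 fell, at a median of 0.30. Socs3, the feedback inhibitor of STAT3 signalling, read 5.24, 5.38 and 5.35 against 6.36, 6.70 and 6.46, a 2.28-fold rise (1.19 ± 0.11, adjusted p 9.59e-05). Osmr, the oncostatin M receptor gene, rose by 1.07 ± 0.16 and Stat3 by 0.68 ± 0.10. Gfap, the intermediate filament of reactive glia, went from 6.10, 6.31 and 5.91 to 6.91, 6.77 and 6.60 (0.65 ± 0.13, adjusted p 0.00639), and Nes, the filament gene nestin, was detected on no reference array and was at least 1.63-fold higher. Lcn2, an iron-binding acute-phase protein, rose by 0.91 ± 0.13, and in the other P12 arrays it was also 0.91 above the reference (adjusted p 0.02).

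Muller glia identity genes moved in either direction, with 2 of 15 higher and 5 lower, against 8.08% and 9.22% of all genes, and a median of -0.15. The largest fall was that of the transporter gene Abca8a, from 9.14, 9.01 and 9.01 to 7.65, 7.70 and 7.64 (-1.39 ± 0.10, adjusted p 1.33e-05), and it was also lower in the other P12 arrays, by -0.82 (adjusted p 0.0018). Rlbp1, which binds retinal, differed by -0.40 ± 0.11 and lost its call without hyperoxic 2, hyperoxic 3, hypoxic 1 or hypoxic 3. Aqp4, the water channel of glial end feet, differed by -0.54 ± 0.10 and Clu, the chaperone clusterin, by -0.54 ± 0.10. Car14, a carbonic anhydrase, rose by 0.58 ± 0.11, but another tested probe of this gene had the opposite sign.

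Photoreceptor genes fell in part. Arr3, the arrestin of cones, had the largest fall of all named genes and read 9.55, 9.57 and 9.81 on the reference arrays against 7.04, 7.23 and 7.40 at P12.5. The fall was 5.35-fold (-2.42 ± 0.12, adjusted p 1.57e-06), with the other P12 arrays between at 8.49, 8.51 and 9.07. Opn1mw, the middle-wavelength cone opsin, differed by -0.84 ± 0.10 and Pde6h, a cone phosphodiesterase subunit, by -0.72 ± 0.10. Of 11 cone genes 3 fell and 1 rose, against 9.22% and 8.08% of all genes, and the gene that rose was Ccdc136 at 0.49 ± 0.11.

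In rods 7 of 23 genes fell and 0 rose, against 9.22% and 8.08% of all genes, with a median of -0.16. Guca1b, an activator of guanylate cyclase, went from 10.44, 10.28 and 10.47 to 8.91, 9.33 and 9.04 (-1.31 ± 0.13, adjusted p 9.49e-05). The calcium sensor gene Rcvrn differed by -1.06 ± 0.12, the retinol dehydrogenase gene Rdh12 by -0.62 ± 0.10, the G protein subunit gene Gnb1 by -0.59 ± 0.11 and Gnat1, rod transducin, by -0.55 ± 0.10. Pde6b, a rod phosphodiesterase subunit, did not pass at -0.29 ± 0.11 (adjusted p 0.098). Rcvrn was also lower in the other P12 arrays, by -0.77 (adjusted p 0.015), while the other P12 values of Guca1b, at 10.15, 10.01 and 10.32, differed from the reference by -0.24 (adjusted p 0.32).

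Among inner retinal neurons, 5 of 13 bipolar cell genes fell and 0 rose, against 9.22% and 8.08% of all genes, with a median of -0.35. Sebox, a homeobox gene, differed by -1.43 ± 0.15 and Grm6, the glutamate receptor of ON bipolar cells, by -0.69 ± 0.10, Lrtm1 by -0.64 ± 0.12 and Scgn, a calcium-binding protein gene, by -0.48 ± 0.10. Sebox was also lower in the other P12 arrays, by -0.81 (adjusted p 0.032). In amacrine cells 0 of 10 and in ganglion cells 0 of 9 tested genes passed the limma test in either direction, with medians of 0.02 and -0.05. The members with the smallest p were Calb2, a calcium-binding protein gene of amacrine cells, at -0.28 ± 0.10 (adjusted p 0.0799), and Slc17a6, a glutamate transporter gene of ganglion cells, at -0.30 ± 0.12 (adjusted p 0.104). Among 5 horizontal cell genes Calb1 differed by -0.70 ± 0.11 and Prox1 by 0.64 ± 0.13, the latter beside 0.57 in the other P12 arrays (adjusted p 0.049), and Onecut2, at 0.34 ± 0.10, passed with all arrays but with none of the 6 left out.

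**Figure D5:**
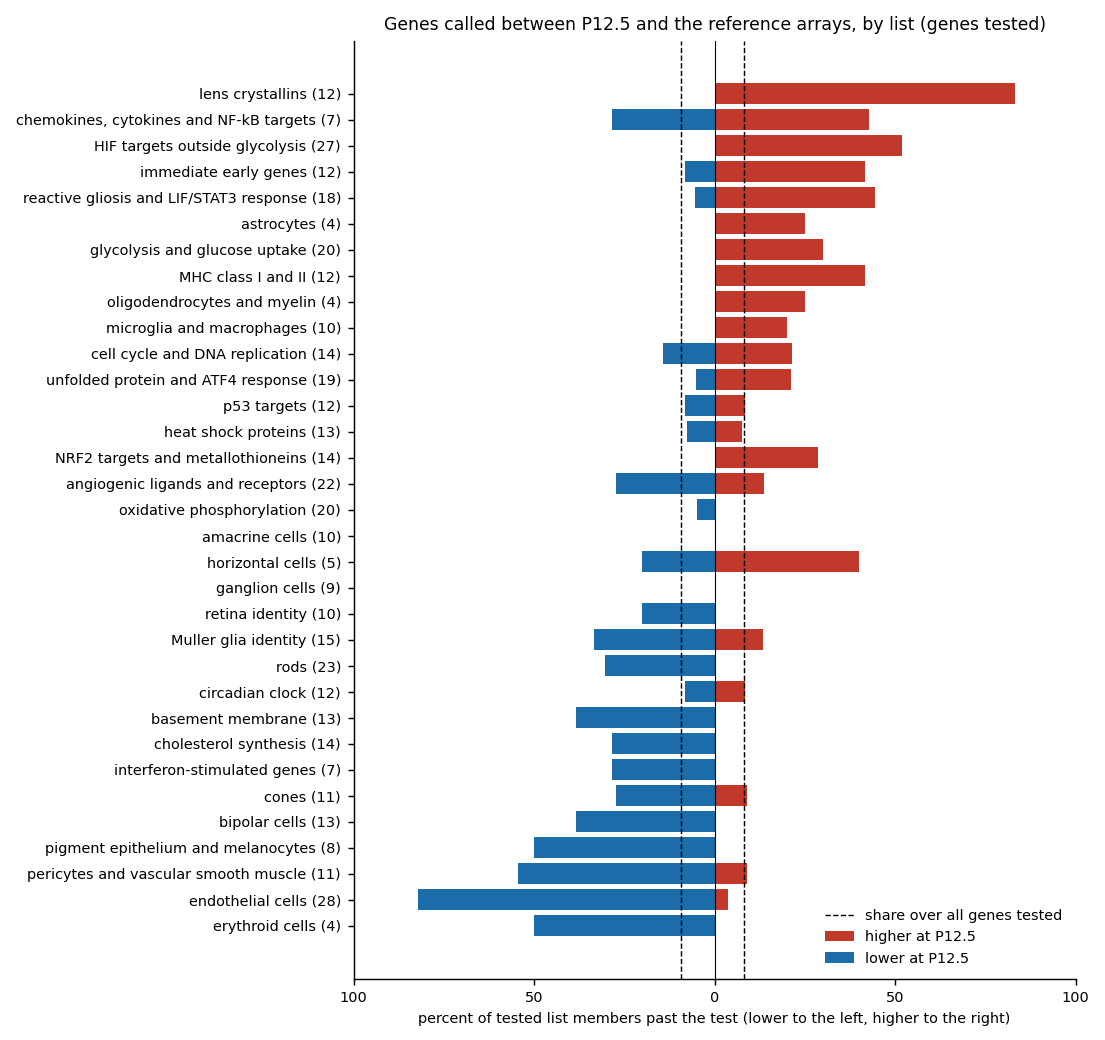
Percent of tested members of each gene list past the test, lower at P12.5 to the left and higher to the right, with the number tested in parentheses. Dashed lines give the shares over all genes, 9.22% lower and 8.08% higher. Bars of lists with few genes move in large steps.

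Cdkn1a, the cell cycle inhibitor p21, read 6.84, 6.84 and 6.93 against 8.91, 8.91 and 8.97, a 4.17-fold rise (2.06 ± 0.10, adjusted p 1.57e-06). In the other P12 arrays it was 0.63 above the reference (adjusted p 0.0079). Of the 12 p53 targets tested it was the one that rose, Ccng1 fell by 0.40 on the log2 scale with another probe of opposite sign, and 10 did not pass. The call of Ccng1 was lost without hyperoxic 3, hypoxic 1 or hypoxic 2. Of 13 heat shock genes Bag3, a co-chaperone, rose by 1.54 ± 0.12, Hsph1 differed by -0.69 ± 0.10, the same as in the other P12 arrays (-0.69, adjusted p 0.0085), and the rest did not pass. In both lists the shares that rose and fell were near those of all genes. Nupr1, a stress-induced nuclear protein gene in neither list, rose by 2.30 ± 0.16.

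Of 14 tested NRF2 targets and metallothioneins 4 rose and 0 fell, against 8.08% and 9.22% of all genes, with a median of 0.06. Mt1, a zinc-binding metallothionein, read 10.94, 10.92 and 11.14 against 12.79, 12.75 and 12.63 (1.73 ± 0.11, adjusted p 6.66e-06), and Mt2 rose by 1.03 ± 0.12. Hmox1, which breaks down heme, went from 5.67, 5.55 and 5.77 to 7.26, 6.84 and 7.09, a 2.64-fold rise (adjusted p 5.72e-05), and Gstm1, a glutathione transferase, rose by 0.73 ± 0.14. In neither Mt1 nor Hmox1 did the sets overlap, which held for 38.0% of all genes.

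Of 12 tested immediate early genes 5 rose and 1 fell, against 8.08% and 9.22% of all genes, with a median of 0.44. Ccn2, a matricellular growth factor, rose by 1.37 ± 0.11, Fos by 1.23 ± 0.18, Fosl2 by 1.14 ± 0.11, Jun by 0.77 ± 0.12 and the phosphatase gene Dusp1 by 0.63 ± 0.10. Circadian clock genes, given here because the sets differ by 12 hours, passed in 2 of 12, near the share of 17.3% over all genes. They were Nr1d1 at 0.54 ± 0.11 and Rorb at -0.48 ± 0.11. Rorb had no call when hypoxic 1 or hypoxic 3 was left out. Per2 read 8.37, 8.45 and 8.43 against 7.97, 8.11 and 8.28 and did not pass (adjusted p 0.0977), nor did Dbp at -0.33 ± 0.11 (adjusted p 0.0615).

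In the immune gene lists the largest rises were those of a few MHC and chemokine genes and of Tnfrsf12a. H2-Ab1, a chain of MHC class II, read 5.07, 4.78 and 5.31 against 7.78, 7.74 and 7.70, a 6.44-fold rise (2.69 ± 0.13, adjusted p 1.57e-06), and was detected on 1 of 3 reference arrays. Its signal was not above background on control 1 and hyperoxic 2, so the size of the rise is not exact. In the other P12 arrays, with detection on 2 of 3, H2-Ab1 was 0.77 above the reference (adjusted p 0.04). The class I genes H2-Q6 and H2-K1 were detected on no reference array and were at least 2.71-fold and 1.46-fold higher, and H2-T23 rose by 1.37 ± 0.10. Class I genes are close in sequence, so their probes may share signal. In the MHC list 5 of 12 tested genes rose and 0 fell, against 8.08% and 9.22% of all genes, and 6 of the 12 differences were below 0. H2-Aa, H2-Eb1 and Cd74, also of this list, were detected on 0 arrays, so antigen presentation as a process was not tested. Restricted to probes detected on all 6 arrays, 1 of 7 was called, and the median was -0.04.

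Ccl4 and Ccl3, chemokines that draw in monocytes and lymphocytes, were detected on no reference array and were at least 3.76-fold and 1.59-fold higher at P12.5. Tnfrsf12a, the receptor of the cytokine TWEAK, rose by 1.98 ± 0.16, or 3.94-fold. Only 7 of the 19 genes of the chemokine, cytokine and NF-kB list had a tested probe. Of these 3 rose and 2 fell, against 8.08% and 9.22% of all genes. Restricted to probes detected on all 6 arrays, 1 of 5 rose and 2 fell, and the median was -0.02. Tnfaip3, an inhibitor of NF-kB, differed by -0.70 ± 0.12, beside -0.75 in the other P12 arrays (adjusted p 0.017). Microglia and macrophage markers rose in 2 of 10, against 8.08% of all genes, and in none without hypoxic 1. Those past the test were Trem2 at 0.53 ± 0.13 and Fcer1g at 0.44 ± 0.10. Fcer1g also lost its call without hypoxic 3. The mean level of the 10 markers was 6.13 to 6.29 at P12.5, 5.93 to 6.13 on the reference arrays and 6.16 to 6.32 in the other P12 arrays. The part of microglial number in the immune genes was not tested. Interferon-stimulated genes fell in 2 of 7, against 9.22% of all genes, namely Ifitm3 at -1.06 ± 0.13 and Ifi27 at -0.85 ± 0.15. Both were also lower in the other P12 arrays than on the reference arrays, by -0.88 (adjusted p 0.030) and -1.31 (adjusted p 0.0027).

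Cholesterol synthesis genes fell in 4 of 14 with 0 higher, against 9.22% and 8.08% of all genes, and their median was -0.25. Those that fell were Sc5d, a sterol desaturase, at -0.55 ± 0.11, the sterol oxidase gene Msmo1 at -0.52 ± 0.12, Hmgcs1, which makes HMG-CoA, at -0.39 ± 0.10 and the sterol dehydrogenase gene Nsdhl at -0.38 ± 0.10. Without hypoxic 1 or without hypoxic 2, 1 of them was called, and without hyperoxic 3, 2 were. Of 20 oxidative phosphorylation genes Cycs, cytochrome c, differed by -0.48 ± 0.10 and the rest did not pass. In the unfolded protein and ATF4 list 4 of 19 rose and 1 fell, against 8.08% and 9.22% of all genes. Stc2 and the glutathione-degrading enzyme Chac1, at 0.57 ± 0.10, were among those that rose. Xbp1, a transcription factor of that response, differed by -0.63 ± 0.10. In the other P12 arrays Chac1 was 0.46 above the reference (adjusted p 0.049) and Xbp1 differed by -0.59 (adjusted p 0.0074). Shmt2, a mitochondrial serine enzyme, rose by 0.50 ± 0.10, beside -0.46 in the other P12 arrays (adjusted p 0.043).

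In the list of cell cycle and DNA replication genes 3 of 14 rose and 2 fell, against 8.08% and 9.22% of all genes. E2f1, a transcription factor of S phase, rose by 0.80 ± 0.13 and the mitotic kinase gene Aurka by 0.59 ± 0.12. Plk1, another mitotic kinase, differed by -0.66 ± 0.12 and Mcm2, a subunit of the replicative helicase, by -0.48 ± 0.11 (adjusted p 0.0143), a call lost without hypoxic 3.

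Genes with large changes outside these lists differed in how they stood in the other P12 arrays. Selenbp1 and Selenbp2, selenium-binding protein genes with close sequences whose probes may share signal, rose by 2.51 ± 0.12 and 2.53 ± 0.13, and in the other P12 arrays they were 1.88 and 1.94 above the reference (adjusted p 0.001 and 0.00066). Apod, a lipid carrier, read 6.86, 6.65 and 6.65 on the reference arrays, 4.78, 5.02 and 5.22 at P12.5, and 4.78, 5.04 and 4.81 in the other P12 arrays. It was detected on 1 of the 3 P12.5 arrays and on 0 of the 3 other P12 arrays, so those values have no order. Gas7 and Dleu2 were lower at P12.5 by -1.53 ± 0.13 and -2.01 ± 0.13, beside -1.67 and -1.48 in the other P12 arrays. Dleu2 was detected on 1 of 3 P12.5 arrays and on 2 of 3 other P12 arrays. Slc25a35, a mitochondrial carrier gene, and Slc17a1, a phosphate transporter gene, differed by -1.66 ± 0.11 and -1.52 ± 0.12, and both were also lower in the other P12 arrays (adjusted p 0.0085). Peli3, an E3 ubiquitin ligase, differed by -1.61 ± 0.12 at P12.5 and by -0.46 in the other P12 arrays (adjusted p 0.079). Slc40a1, the iron exporter ferroportin, differed by -1.49 ± 0.11.

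Markers of tissue next to the retina also moved. Lens crystallins were higher at P12.5 in 10 of 12 tested genes, with a median of 2.06, but unevenly: their mean level was 10.15 on hypoxic 1, 7.57 on hypoxic 2 and 7.46 on hypoxic 3, against 5.94 to 6.64 on the reference arrays and 5.31, 6.45 and 9.13 on control 2, control 3 and hyperoxic 1. Crygb, a structural protein of lens fibres, read 4.99, 6.22 and 5.36 against 10.29, 7.51 and 7.43 (2.88 ± 0.62, adjusted p 0.00948), with detection on 2 of 3 reference arrays. Cryga, Crygd, Cryba1, Crygc and Crygs, also among the 12 largest rises, differed by 2.09 to 2.80. Without hyperoxic 3, 1 of the 12 was called, without hypoxic 1 all 12 were called at a median of 1.24, and with the fit over 9 arrays or the deposited ratios 0 were. Among the 10 genes with probes detected on all 6 arrays, 8 rose, at a median of 2.01. The part of lens tissue in these values was not tested.

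Pigment cell genes fell in 4 of 8, against 9.22% of all genes, at a median of -0.50. They were the transcription factor gene Mitf at -0.67 ± 0.11, the pigment synthesis gene Dct at -0.57 ± 0.14, Pmel, a structural protein of melanosomes, at -0.53 ± 0.15 and Rdh5, a retinol dehydrogenase, at -0.50 ± 0.13. Without hypoxic 3, and with the deposited ratios, 1 of the 8 was called, and without hypoxic 2 or without hyperoxic 2, 2 were. Hemoglobin genes fell in the 2 cases past the test among 4 erythroid genes, of which Hbb-bs read 11.43, 10.84 and 11.23 against 9.29, 8.94 and 11.10. Hypoxic 3 lay within the reference range and the other P12.5 arrays below it. Hbb-bs, at -1.39 ± 0.43 (adjusted p 0.0479), kept its call without hypoxic 3 and lost it without any of the other 5 arrays, with differences from -1.55 to -0.97. Hbb-bt differed by -0.52 ± 0.16, with detection on 2 of 3 P12.5 arrays, and kept its call without hyperoxic 3 alone. Of 4 tested astrocyte genes Pdgfra passed, at 0.67 ± 0.18 with another probe of opposite sign, and of 4 oligodendrocyte genes Mbp passed, at 0.34 ± 0.10, beside 0.56 in the other P12 arrays (adjusted p 0.019). Pdgfra lost its call without hyperoxic 2, hyperoxic 3, hypoxic 2 or hypoxic 3, and Mbp without any 1 of the 6 arrays.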

How the data were processed

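Retinal RNA of 9 mice was measured on Illumina bead arrays, with biotin-labelled cRNA made with an Ambion kit, per the labels' protocols. The deposited raw table holds probe intensity on a linear scale, not background-corrected as far as its values show, with a detection p-value column beside each, per the file headers. A second deposited table gives ratios, 1 for each probe on each array, which served to find the reference arrays and as an alternative. How the authors scaled the ratios, and the scanner software, the sources used here do not give. No column of per-sample values was left unmapped.

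Of 46640 probes, 27 at 0 on all arrays were left out. Of the 46613 kept, the platform annotation gave 1 symbol for 32781, several for 55, which stay unnamed, and none for 13777, and 32709 were matched to a RefSeq gene (GRCm38.p6). Intensities of all 9 arrays were corrected with neqc of limma 3.58.1 in R 4.3.3 (normexp on negative controls inferred from detection p, offset 16, quantile). The offset makes changes of dim genes smaller. Probes with detection p below 0.05 on each array of the P12.5 or the reference set were fitted with lmFit and eBayes over the 6 arrays, two-sided, with Benjamini-Hochberg adjustment at 0.05 over all 19548 probes; every adjusted p comes from limma. The other P12 arrays entered a second fit over 9 arrays with a mean per set. A gene is given by its most intense tested probe. For a gene detected on no array of a set the fold is a bound, taken from the higher of each array's lowest detected signal and the probe's own signal. The number of arrays limits the precision. The scripts were tested on simulated data.

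By rule the names were drawn from, of called genes with non-overlapping sets and no clone name, the 12 that rose most and the 12 that fell most, then the 4 list members with the smallest p for each of 33 lists, and 13 genes whatever their values; genes so chosen that did not pass, and a few that did, stand in the counts only. Other members called in a list, and members named for their role, were named after their values were seen. The arrays, members and lists were chosen with earlier results of these data known. Some list members are not reported here.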

Additional observations from a re-analysis of the deposited data

How the results depend on the processing

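Of 147 named genes 115 passed the test; 88 of these passed with the same sign under every alternative run, 27 lost the call under at least 1, 25 of them when an array was left out, and 0 changed sign. The 3162 called probes became 1897 (898 higher, 999 lower) in the fit over 9 arrays, and the deposited ratios gave 968 lower probes; the cause was not tested. Leaving out each array in turn gave 1910 to 3377 called probes, 914 to 1714 higher and 996 to 1663 lower, with the lowest total without hypoxic 2 (1910), and totals of 2031 without hypoxic 1 and 2043 without hypoxic 3. With the replicate number as a block 2821 probes were called (1348 higher, 1473 lower); same-numbered arrays deviated together by -0.12, -0.10 and -0.05, so the numbers were not taken to pair the samples. The sex pattern as a covariate gave 3051 and array weights 3960. For the other P12 arrays against the reference, the 873 called probes ranged from 229 (without hyperoxic 2) to 1084 with an array left out, were 261 without hyperoxic 3, and were 2304 with array weights, which gave hyperoxic 1 a weight of 0.168. Among genes that did not pass, the difference of Aldh1l1 turned to -0.058 with array weights and ranged from -0.23 (without hyperoxic 2) to 0.212 with an array left out, below 0 also without hypoxic 2 (-0.09) and hypoxic 3 (-0.03), and that of Cnp ranged from -0.0232 (without hyperoxic 2) to 0.264. The list medians changed sign under 1 of 19 alternatives for the angiogenic, MHC, chemokine and unfolded protein lists, under 2 for amacrine and ganglion cells and under 4 for horizontal cells. A block by slide was not run, as the files name no slide. Dim genes near the detection limit can only be bounded.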

Other observations

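Histone H2B genes, chosen after their values were seen, were lower at P12.5 in 10 of 12 tested and higher in 0, with a median difference of -1.02 and a range of -1.21 to -0.05. In the other P12 arrays 9 of the 12 were lower than on the reference arrays, with a median of -0.88. These genes, which encode a core protein of the nucleosome, are close in sequence, so their probes may share signal and do not count as separate measurements.

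Hif1a and Hif3a, also chosen after their values were seen, were higher at P12.5. Hif1a, the oxygen-regulated subunit, read 5.24, 6.04 and 5.53 on control 1, hyperoxic 2 and hyperoxic 3 and 7.24, 6.94 and 7.12 on hypoxic 1, 2 and 3, a difference of 1.498 ± 0.18 (SE, n = 3 per set, limma). Hif3a, a family member that can oppose the others, rose by 1.11 ± 0.11 at its more intense probe, and its other tested probe had the opposite sign. In the other P12 arrays Hif3a read 7.67, 7.87 and 7.78, which was 0.73 above the reference (adjusted p 0.006, limma), while Hif1a differed by -0.25 (adjusted p 0.56).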
